A study of Homo sapiens with 10 samples.

Results

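A list of 10 genes of the cytoskeletal and nuclear intermediate filaments was followed in HCT116 cells and DNMT1 KO cells: the keratins KRT7, KRT8, KRT18, KRT19, KRT20, KRT23 and KRT80, vimentin (VIM), nestin (NES) and lamin A/C (LMNA). They are 10 of the 58884 genes in each count table and were found by matching their symbols to the Ensembl identifiers of the tables. The members were selected on earlier results of the same comparison, so their differences between DNMT1 KO and HCT116 cells are given below as a description, with standard errors and no p-value.

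HCT116 is a colorectal cancer cell line, labelled wild type (WT) for DNMT1, the maintenance DNA methyltransferase that copies CpG methylation to newly made DNA. DNMT1 KO cells are a published derivative of HCT116 in which exons of DNMT1 were deleted, and they still make a truncated DNMT1 at a reduced level. Poly(A) RNA was sequenced from 6 HCT116 libraries (replicates 1, 2, 3, 7, 8 and 9) and 4 DNMT1 KO libraries (replicates 1 to 4), all from untreated cells in the same medium. The labels put replicate 1 of each line in batch 1, replicates 2 and 3 of each line in batch 2, DNMT1 KO replicate 4 in batch 3 and HCT116 replicates 7, 8 and 9 in batch 4. There was 1 DNMT1 KO line, so the genotype and the line cannot be told apart.

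Intermediate filaments are rope-like polymers built from coiled-coil proteins. Keratins are obligate heteropolymers of a type II and a type I protein; simple epithelia such as that of the colon are known for KRT8 pairing with KRT18 and KRT19. VIM is the filament protein of mesenchymal cells, NES co-assembles with VIM in progenitor cells, and LMNA encodes the A-type lamins that line the inner nuclear membrane.

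Total counts lay between 35418732 and 85991812 in HCT116 and between 26700853 and 55732013 in DNMT1 KO libraries. Levels are given as CPM (the count scaled to a common library total) with trimmed mean of M values (TMM) factors. DNMT1 itself was at 89.8 to 263 CPM in HCT116 and at 14.1 to 22.3 CPM in DNMT1 KO libraries. DNMT1 KO replicate 4 stood apart in one respect: 39.9% of its counts from 1 to 10 were even numbers, against 64.4% to 70.0% in the other 9 libraries. The paper lists a paired-read setting (-p) for the counting program but not the program's version. Whether a read pair was counted once or as 2 reads in each library is not spelled out there. Raw counts and totals may therefore not be in the same unit across libraries, and CPM values are the ones compared. Of 8 colon epithelium markers, 6 passed the filter on low counts. By the calls described below, EPCAM and CDH1, both epithelial adhesion proteins, were lower in DNMT1 KO cells, while VIL1 was higher from near 0. CDX2 was not called, with means of 30.7 CPM in HCT116 and 36.0 CPM in DNMT1 KO cells. The summed level of that list was 305 to 712 CPM in HCT116 and 101 to 140 CPM in DNMT1 KO libraries. In HCT116 cells its largest parts were EPCAM (mean 307 CPM) and CDH1 (mean 148 CPM), whose means in DNMT1 KO cells were 72.8 and 11.5 CPM. The summed fibroblast list (7 genes) was 6.50 to 19.8 CPM against 16.6 to 21.4 CPM, with COL3A1, LUM and PDGFRB higher in DNMT1 KO cells and COL1A2, DCN and THY1 at or near 0 in every library. COL1A1, the most abundant of that list in HCT116 cells, had a mean of 12.5 CPM there and 6.72 CPM in DNMT1 KO cells. Of the leukocyte markers, PTPRC was at or near 0 in every library. The part that these markers have in the results below was not tested, and in bulk RNA fewer cells of a type and less RNA per cell cannot be told apart.

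To show what the read letters of KRT8 and KRT18 can and cannot resolve, a 50-base stretch of each transcript is printed. The lower-case bases end exon 2 and the capitals open exon 3 (exons counted from the 5′ end of the annotated reference transcript). Each stretch crosses a splice junction, so it does not occur unbroken at its own gene, but it occurs letter for letter in processed pseudogenes, intron-less copies of the mRNA. The KRT8 stretch lies in KRT8P45 at chr1:157073762-157073811 (plus strand, GRCh38) and has the same letters in 4 KRT8 pseudogenes. The KRT18 stretch lies in KRT18P38 at chr6:19613206-19613255 (plus strand, GRCh38) and has the same letters in 5 KRT18 pseudogenes.
KRT8: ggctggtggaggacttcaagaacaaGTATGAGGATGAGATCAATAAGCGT
KRT18: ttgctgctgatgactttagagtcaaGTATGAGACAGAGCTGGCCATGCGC

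Of the 10 genes, 8 passed the filter on low counts. KRT20 and KRT23 were listed at 0 counts in all 10 libraries. Among the 8, 2 (VIM and NES) were called higher in DNMT1 KO cells and 3 (KRT7, KRT8 and KRT18) lower, where a call is an adjusted p under 0.05 and an absolute log2 fold change over 1 in edgeR's quasi-likelihood test. Over all 19279 genes tested, 7.42% were called higher, 6.49% lower and 13.9% in either direction. The same 5 genes were those whose DNMT1 KO and HCT116 libraries did not overlap, as was so for 15.2% of all genes. The median log2 fold change was -0.74 over the 8 genes and -0.07 over all genes. Since the members were selected on this comparison, nothing is read from these counts.

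**Figure D1:**
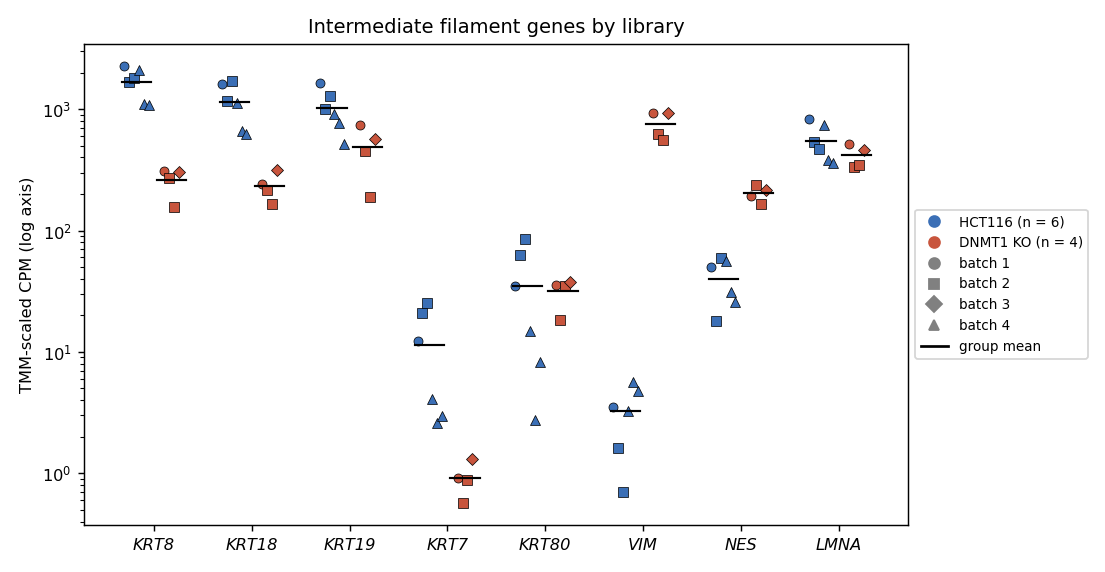
TMM-scaled CPM (log axis) of the 8 genes above the filter in 6 HCT116 (blue) and 4 DNMT1 KO (red) libraries; symbols mark the batch and black lines the group means. VIM lies between 0.695 and 5.65 CPM in HCT116 and between 557 and 930 CPM in DNMT1 KO libraries, while KRT8, KRT18 and KRT7 lie lower in every DNMT1 KO library.

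VIM (ENSG00000026025, chr10:17228241-17237593, plus strand) had the largest difference of the 8 genes. Its levels in HCT116 replicates 1, 2, 3, 7, 8 and 9 were 3.53, 1.60, 0.695, 3.27, 5.65 and 4.74 CPM. In DNMT1 KO replicates 1 to 4 they were 930, 627, 557 and 923 CPM. Every DNMT1 KO library was thus far above every HCT116 library, and the lowest library of VIM held 26 counts. The fitted log2 fold change was 7.86 ± 0.52 (SE), or 232-fold. Within batch 1 the log2 ratio was 8.04, and within batch 2 it was 9.01. Of the 5176 exon bases of VIM, 24.3% also lie in exons of 2 antisense RNAs, and the counting was not stated to use strand. The antisense RNA VIM-AS1 was at 0.16 to 0.99 CPM in HCT116 and at 1.40 to 2.12 CPM in DNMT1 KO libraries.

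NES (ENSG00000132688, chr1:156668763-156677407, minus strand), the large filament protein that needs a partner such as VIM to polymerise, was the other gene that was higher. It was at 50.0, 18.1, 59.9, 56.2, 31.2 and 25.9 CPM in the HCT116 replicates in the same order. In DNMT1 KO replicates 1 to 4 it was at 192, 236, 166 and 215 CPM, all above the highest HCT116 library. The log2 fold change was 2.33 ± 0.32 (SE), and the log2 ratios within batches 1 and 2 were 1.94 and 2.36. NES was already present in HCT116 cells, where the libraries of batch 4 overlapped with those of batches 1 and 2.

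The letters just upstream of these members' starts are shown because both were higher in cells with a truncated DNMT1, whose substrate is the CpG dinucleotide. The set of RefSeq promoter windows used here (GRCh38.p14) covers 5 of the 10 genes: VIM, NES, LMNA, KRT8 and KRT20. The 250 bases before the start are printed in the direction of the gene, with each CG in capitals; CG reads the same on both strands. They span chr10:17227991-17228240 (plus strand) for VIM and chr1:156677408-156677657 (minus strand) for NES.
VIM: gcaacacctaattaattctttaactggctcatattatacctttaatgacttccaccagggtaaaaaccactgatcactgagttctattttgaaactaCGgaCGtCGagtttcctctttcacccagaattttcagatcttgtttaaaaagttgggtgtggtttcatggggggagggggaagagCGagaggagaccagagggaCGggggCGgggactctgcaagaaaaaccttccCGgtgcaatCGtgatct
NES: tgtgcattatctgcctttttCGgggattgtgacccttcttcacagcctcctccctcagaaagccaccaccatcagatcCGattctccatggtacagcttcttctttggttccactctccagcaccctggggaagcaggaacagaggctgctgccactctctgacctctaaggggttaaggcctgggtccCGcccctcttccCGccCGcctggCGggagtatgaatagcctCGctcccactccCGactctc

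Each of these windows holds 8 CG dinucleotides. Of the 35116 windows of the same length in that set, 56.3% hold at least as many, and the median is 11. The windows of LMNA, KRT8 and KRT20 are not shown, so the CG number is not compared between members. DNA methylation at these letters was not analysed here, and its part in the differences was not tested.

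KRT8 and KRT18, the type II and type I partners of simple epithelial filaments, were both lower in DNMT1 KO cells. KRT8 (ENSG00000170421, chr12:52897187-52949954, minus strand) was at 2273, 1671, 1820, 2092, 1110 and 1075 CPM in the HCT116 replicates. In DNMT1 KO replicates 1 to 4 it was at 310, 270, 157 and 303 CPM. The groups did not overlap, and the log2 fold change was -2.69 ± 0.32 (SE), or 6.44-fold lower. Within batches 1 and 2 the log2 ratios were -2.87 and -3.03.

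KRT18 (ENSG00000111057, chr12:52948871-52952906, plus strand) was at 1601, 1172, 1702, 1131, 656 and 623 CPM in the HCT116 replicates. In DNMT1 KO replicates 1 to 4 it was at 242, 217, 165 and 313 CPM, again below every HCT116 library. The log2 fold change was -2.29 ± 0.35 (SE), and the log2 ratios within batches 1 and 2 were -2.73 and -2.91. KRT8 and KRT18 lie head to head, and 525 exon bases belong to both annotated genes, which is 7.63% of the KRT8 and 17.1% of the KRT18 exon bases.

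The log2 ratio of KRT8 to KRT18 CPM was 0.59 ± 0.29 (SD, n = 6) in HCT116 and 0.14 ± 0.23 (SD, n = 4) in DNMT1 KO libraries, so the partners did not differ by exactly the same amount. The difference of the means was -0.45 over all libraries and -0.17 within batches 1 and 2 alone. HCT116 batch 4 had a mean log2 ratio of 0.81, against 0.37 in HCT116 batches 1 and 2, and the HCT116 and DNMT1 KO ranges (0.097 to 0.89 and -0.069 to 0.36) overlapped. The ratio is a description, and its difference was not tested.

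KRT19 (ENSG00000171345, chr17:41523617-41528308, minus strand), the smallest type I keratin and another partner of KRT8, differed less. It was at 1645, 1007, 1280, 911, 763 and 517 CPM in the HCT116 replicates and at 738, 455, 190 and 569 CPM in DNMT1 KO replicates 1 to 4. The groups overlapped, since DNMT1 KO replicates 1 and 4 lay above the lowest HCT116 library. The log2 fold change was -1.06 ± 0.38 (SE), which was not called, while several alternatives called KRT19 lower. Over the same 10 libraries these were a model that included batch (-1.60 ± 0.38, SE), DESeq2 (-1.05 ± 0.39) and edgeR with no filter on low counts (-1.10 ± 0.35). It was also called lower in batches 1 and 2 (-1.60 ± 0.37) and without HCT116 replicate 9 (-1.2 ± 0.37).

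KRT7 (ENSG00000135480, chr12:52232520-52252186, plus strand), a type II keratin of ducts and glands, was low in both lines. It was at 12.4, 20.9, 25.2, 4.09, 2.60 and 2.94 CPM in the HCT116 replicates and at 0.909, 0.569, 0.873 and 1.32 CPM in DNMT1 KO replicates 1 to 4. The 3 HCT116 libraries of batch 4 (replicates 7, 8 and 9) lay between the other HCT116 libraries and the DNMT1 KO libraries. The log2 fold change was -3.64 ± 0.71 (SE), with -3.77 within batch 1 and -5.00 within batch 2. Exons of other genes, chiefly the antisense KRT7-AS, cover 7.85% of its exon bases.

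KRT80 (ENSG00000167767, chr12:52168996-52192014, minus strand), a type II keratin found near desmosomes, showed no such separation. It ranged from 2.76 to 85.8 CPM, with a median of 24.7, in HCT116 and was at 35.5, 18.4, 35.2 and 37.4 CPM in DNMT1 KO replicates 1 to 4. The DNMT1 KO libraries lay inside the HCT116 range. The log2 fold change was -0.14 ± 0.67 (SE) and its sign depended on single libraries, at 0.39 without HCT116 replicate 3, 0.12 with HCT116 replicate 2 left out and 0.054 with DNMT1 KO replicate 2 left out. Library totals alone gave 0.051, and a model that included batch gave -0.98 ± 0.48 (SE). Within batch 1 the log2 ratio was 0.031 and within batch 2 it was -1.47.

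LMNA (ENSG00000160789, chr1:156082573-156140089, plus strand), the only nuclear filament protein of the 10, was abundant in both lines. It was at 827, 535, 470, 737, 381 and 358 CPM in the HCT116 replicates and at 515, 335, 350 and 464 CPM in DNMT1 KO replicates 1 to 4. The groups overlapped, with a log2 fold change of -0.41 ± 0.28 (SE).

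**Figure D2:**
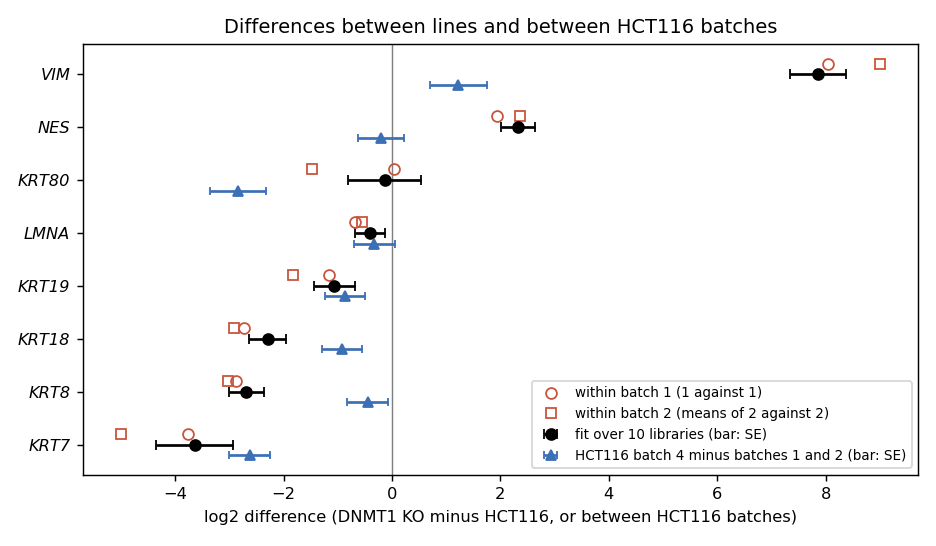
Log2 differences of the 8 genes (horizontal axis): DNMT1 KO minus HCT116 in the fit over 10 libraries (black, bars are SE), the same within batch 1 and within batch 2 (open red), and HCT116 batch 4 minus HCT116 batches 1 and 2 (blue, bars are SE). The differences of VIM, NES, KRT8, KRT18 and KRT7 have the same sign in both batches, and KRT7 and KRT80 also differ between HCT116 batches (-2.62 and -2.84).

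The spread among HCT116 libraries was compared by batch, a contrast that did not choose the members. KRT7 and KRT80 were lower in batch 4 than in batches 1 and 2, with log2 differences of -2.62 ± 0.38 and -2.84 ± 0.52 (SE; edgeR adjusted p = 0.0028 and 0.0068). KRT7 was at 3.21 ± 0.78 CPM (SD, n = 3) in batch 4 and at 19.5 ± 6.55 CPM (SD, n = 3) in batches 1 and 2. KRT80 was at 8.60 ± 6.01 CPM (SD, n = 3) against 60.9 ± 25.6 CPM (SD, n = 3). These were 2 of 8 members, beside 8.03% of the 18656 genes tested in that contrast. The other 6 were not called, with log2 differences of 1.22 ± 0.52 (SE) for VIM, -0.91 ± 0.37 for KRT18, -0.87 ± 0.36 for KRT19, -0.45 ± 0.37 for KRT8, -0.33 ± 0.38 for LMNA and -0.20 ± 0.42 for NES. For KRT80 the log2 difference between HCT116 batches (-2.84) was larger in size than that between the lines (-0.14).

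Divided by exon length, levels can be set beside each other between genes, as CPM per kilobase of exon (RPKM). In HCT116 cells KRT19 led with 437 ± 170 RPKM (SD, n = 6), followed by KRT18 with 374 ± 148 and KRT8 with 243 ± 72.1. LMNA followed with 78.9 ± 27.4 RPKM, KRT80 with 7.96 ± 7.59, NES with 7.22 ± 3.13, KRT7 with 2.84 ± 2.46 and VIM with 0.63 ± 0.36. KRT19, KRT18 and KRT8 overlapped with their neighbours in this order across libraries, as did KRT80, NES, KRT7 and VIM, whereas LMNA lay apart from KRT8 and from KRT80. In DNMT1 KO cells KRT19 was still first with 209 ± 98.6 RPKM (SD, n = 4), and VIM came next with 147 ± 37.7. KRT18 with 76.3 ± 20.1 and LMNA with 59.5 ± 12.6 RPKM followed, then KRT8 with 37.8 ± 10.3 and NES with 36.3 ± 5.40. KRT80 was at 7.25 ± 2.04 and KRT7 at 0.23 ± 0.08 RPKM. KRT19 and VIM overlapped, as did KRT18 with LMNA and KRT8 with NES. The exon length used for KRT8 (6881 bases) includes exons of an upstream start, which lowers its RPKM.

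As a share of the summed RPKM of the 10 genes, the keratins made up 92.2% ± 1.57 (SD, n = 6) in HCT116 and 56.4% ± 6.39 (SD, n = 4) in DNMT1 KO libraries. VIM made up 0.069% ± 0.059 and 26.1% ± 3.16, and NES 0.64% ± 0.21 and 6.72% ± 1.84. The share of KRT19 was close in both lines, at 37.7% ± 3.82 and 34.8% ± 8.43, whereas that of KRT8 was 21.6% ± 2.93 against 6.64% ± 0.62. These shares rest on the members' own levels and carry no test. They have the same limits between genes as RPKM, since lost junction reads and pseudogene counts were not corrected for.

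**Figure D3:**
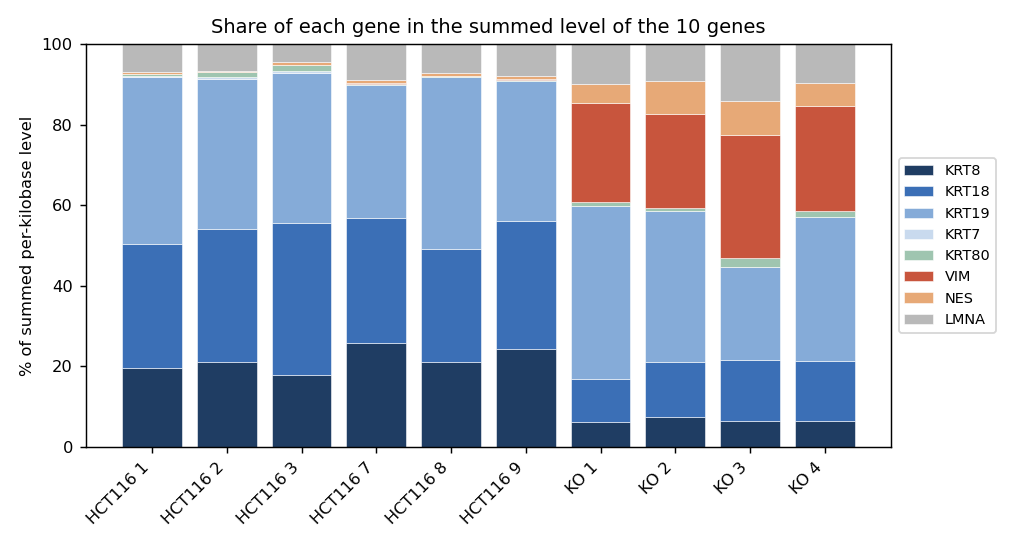
Share (%) of each gene in the summed per-kilobase level (RPKM) of the 10 genes, 1 bar per library. KRT20 and KRT23 are at 0, from which nothing on their expression is read. Keratins (blue and green) fill 90.2% to 94.7% of each HCT116 bar and 47.0% to 60.9% of each DNMT1 KO bar, where VIM (red) takes 23.3% to 30.5%.

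Reads of KRT8, KRT18 and KRT19 can be placed on their processed pseudogenes. The alignment was made to the genome without splicing, so that a read across a splice junction has an unbroken match only at such a copy. Of all 50-base stretches across KRT8 junctions, 71.4% occurred letter for letter elsewhere in the genome, and of those across KRT18 junctions 54.4%. Within exons these shares were 12.9% for KRT8 and 13.0% for KRT18. They count any other place, not pseudogenes alone. Of the KRT8 exon stretches, 308 had a match outside both annotated keratin pseudogenes and alternate contigs, and 286 had one in KRT8P3. For KRT19 the shares were 7.35% across junctions and 0.28% within exons. VIM, NES, LMNA and KRT80 had no junction stretch elsewhere, and KRT7 had 1.06%.

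The 51 annotated KRT8 pseudogenes held 25.4% ± 2.06 (SD, n = 6) of the summed KRT8 and pseudogene counts in HCT116 and 27.3% ± 2.05 (SD, n = 4) in DNMT1 KO libraries. The 67 KRT18 pseudogenes held 10.6% ± 0.93 (SD, n = 6) and 11.2% ± 0.32 (SD, n = 4). Over all 10 libraries, with batch not taken into account, neither share differed beyond the spread between libraries. The differences were 1.91 and 0.61 percentage points, with p = 0.21 and p = 0.28 in a two-sided exact permutation test (both 0.28 adjusted over the 2 genes, smallest possible p 0.0048). The 5 KRT19 pseudogenes held 19.6% ± 2.04 and 19.6% ± 1.2, almost all of it in KRT19P1. This KRT19 share was added after the data were seen and was not tested. Single libraries moved the differences of the other genes: KRT8 was at 1.08 points without DNMT1 KO replicate 4 and 1.14 without HCT116 replicate 2, and KRT18 at 0.34 without HCT116 replicate 1. In batches 1 and 2 alone the KRT18 difference was 1.29 points. There the KRT18 shares did not overlap, at 9.26% to 10.7% in HCT116 and 10.8% to 11.6% in DNMT1 KO libraries. Counting just those pseudogenes that overlap no other annotated gene, the KRT8 difference was 0.0052 points.

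**Figure D4:**
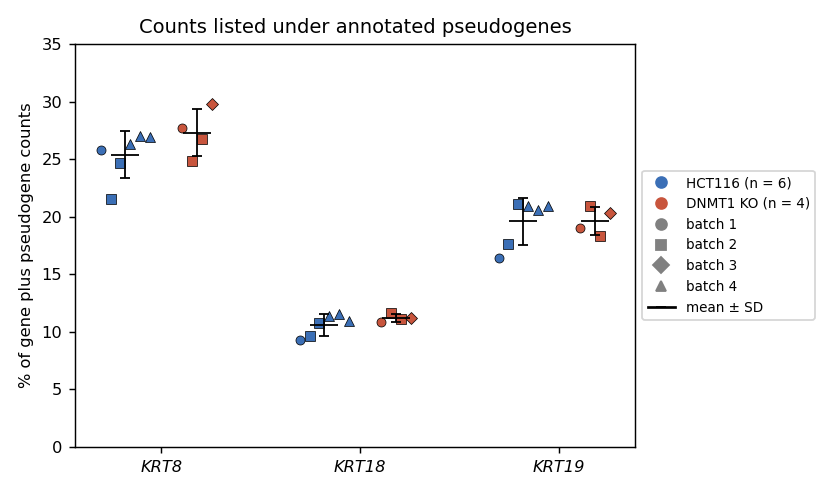
Counts of annotated pseudogenes as a percentage of gene plus pseudogene counts for KRT8, KRT18 and KRT19, 1 point per library, with mean ± SD; blue is HCT116, red DNMT1 KO, and symbols mark the batch. Both lines overlap for each gene, near 26% for KRT8, 11% for KRT18 and 20% for KRT19.

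The 5 KRT8 pseudogenes with the most counts were KRT8P3, KRT8P45, KRT8P33, KRT8P5 and KRT8P10. KRT8P3 alone held 137839 counts over the 10 libraries, between 18.3% and 29.0% of the KRT8 count of the same library, and KRT8P45 held 3.93% to 5.33%. KRT8P3 was at 393 ± 122 CPM (SD, n = 6) in HCT116 and at 65.2 ± 24.8 CPM (SD, n = 4) in DNMT1 KO libraries, a log2 difference of -2.59 ± 0.34 (SE) beside -2.69 for KRT8. The 5 KRT18 pseudogenes with the most counts were KRT18P38, KRT18P10, KRT18P11, KRT18P17 and KRT18P16. KRT18P38 held 1.67% to 2.84% of the KRT18 count and differed by -2.50 ± 0.32 (SE) on the log2 scale, beside -2.29 for KRT18. With all their pseudogenes added, KRT8 and KRT18 differed by -2.65 ± 0.32 and -2.28 ± 0.35 (SE), and KRT19 by -1.06 ± 0.38 (SE). Counts of a pseudogene and of its parent gene cannot be told apart here, so pseudogene levels are uncertain.

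KRT20 (ENSG00000171431, chr17:40875941-40885227, minus strand), a type I keratin of differentiated intestinal epithelium, and KRT23 (ENSG00000108244, chr17:40922696-40937634, minus strand), a type I keratin known from epithelial tumours, were listed at 0. All 1465 exon stretches of 50 bases of KRT20 and all 2478 of KRT23 also occur on an alternate contig of chromosome 17 in GRCh38. Reads with equal matches at several places have a low mapping quality, and the study removed reads under 10. Whether the index it used held alternate contigs is not given in the sources used here. KRT10, a keratin of the same chromosome with no stretch on an alternate contig, had 26832 counts. Of 28 listed keratin genes on chromosome 17, 12 were listed at 0 in every library, and of 27 on chromosome 12, 9 were. Nothing on the expression of KRT20 and KRT23 was therefore read from these zeros.

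To place the members among related genes, 3 lists were examined: 60 other intermediate filament genes, 13 genes that link filaments to desmosomes, hemidesmosomes or other structures, and 13 partners of the nuclear lamina. The lists were written with earlier results of these data known, so nothing is read from the number of genes called. Of the 60 other filament genes, 20 passed the filter on low counts, with a median log2 fold change of -0.25. In DNMT1 KO cells 4 were called higher, 3 were called lower and 13 were not called, beside 13.9% of all genes called in either direction. NEFH (ENSG00000100285), the heavy neurofilament protein of neurons, rose from 0.079 ± 0.091 CPM (SD, n = 6) to 20.5 ± 5.73 CPM (SD, n = 4), with an edgeR adjusted p of 1.3e-06. Its log2 fold change of 7.73 rested on HCT116 batch 4, since HCT116 replicates 1, 2 and 3 held 0 counts of NEFH. The value of 13.0 fitted with batch in the model therefore depends on the prior count and is no bound. KRT35 and KRT36, both hair keratins, rose from 0.019 ± 0.025 to 1.32 ± 0.54 CPM and from 0.061 ± 0.060 to 1.12 ± 0.73 CPM (edgeR adjusted p = 3.1e-05 and 0.00080). KRT17, a keratin of basal and stressed epidermis, rose from 0.11 ± 0.087 to 1.13 ± 0.44 CPM (edgeR adjusted p = 0.0030). These 3 keratins stayed near 1 CPM, far under KRT8, KRT18 and KRT19.

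KRT15, a type I keratin of basal cells, fell by 2.91 on the log2 scale (SE 0.32, edgeR adjusted p = 1.4e-05), from 25.8 ± 7.70 CPM (SD, n = 6) to 3.46 ± 0.90 CPM (SD, n = 4). KRT81, a hair keratin, fell by 2.07 (SE 0.54, edgeR adjusted p = 0.015) and DES, the filament protein of muscle, fell by 1.17 (SE 0.33, edgeR adjusted p = 0.024). Both calls were lost in alternatives: KRT81 without any of DNMT1 KO replicates 1, 2 or 3 (adjusted p = 0.068, 0.056 and 0.055), and DES in a model that included batch (adjusted p = 0.070). DES was also not called without HCT116 replicate 8 or without DNMT1 KO replicates 1, 3 or 4 (adjusted p = 0.052, 0.056, 0.063 and 0.081). KRT15 was called under each of the 20 alternatives run. The B-type lamins LMNB1 and LMNB2 had log2 fold changes of 0.44 ± 0.37 and -0.12 ± 0.31 (SE) and were not called.

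**Figure D5:**
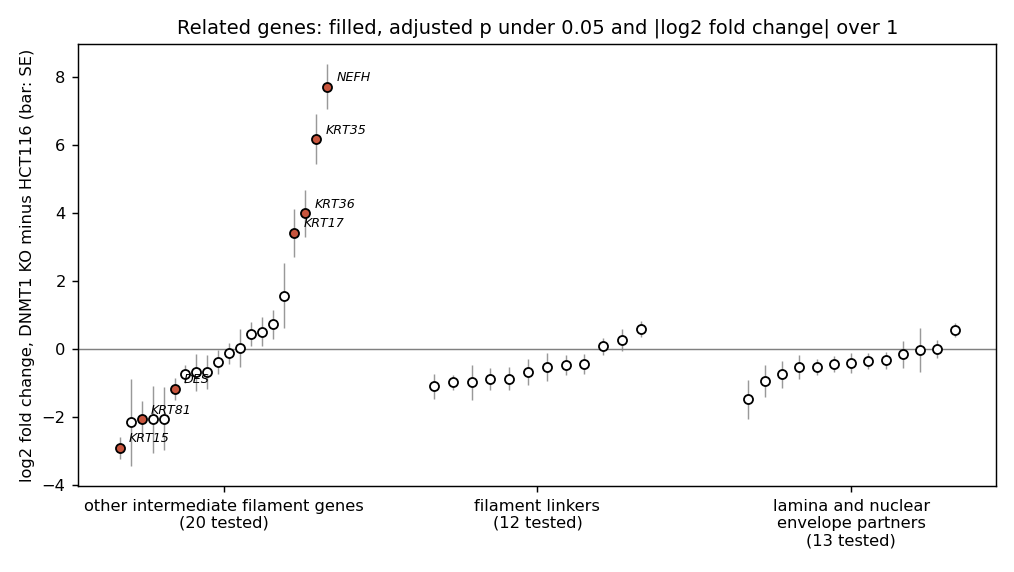
Log2 fold change (DNMT1 KO minus HCT116, bars are SE) of each tested gene in the 3 lists of related genes, sorted within each list; filled points passed adjusted p under 0.05 and an absolute log2 fold change over 1. The 7 filled points are all other filament genes, from NEFH at 7.73, where 3 of 6 HCT116 libraries held 0 counts, to KRT15 at -2.91.

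Of the 13 linker genes, 12 were tested, and edgeR called none, with 5 at an unadjusted p under 0.05 and 1 called by DESeq2. Their median log2 fold change was -0.61, beside -0.07 over all genes, and 9 of 12 had a value below 0. The 3 with the most counts were PLEC, the cytolinker plectin, at -0.53 ± 0.40 (SE), DSP, the desmosomal plaque protein desmoplakin, at 0.26 ± 0.32, and JUP, plakoglobin, at -1.10 ± 0.37 (edgeR adjusted p = 0.43, 0.66 and 0.056). A model that included batch called 5 of the linkers, among them JUP at -1.38 ± 0.34 (SE, adjusted p = 0.0084) and PLEC at -1.23 ± 0.36 (SE, adjusted p = 0.023). JUP was also called without HCT116 replicate 8 or replicate 9 (adjusted p = 0.048 and 0.011), and the linker count was then 2 and 3. Without DNMT1 KO replicate 1 the linker count was 1.

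All 13 lamina partners were tested, and edgeR called none, with 3 at an unadjusted p under 0.05 and 1 called by DESeq2. Their median log2 fold change was -0.41. TMPO, which encodes lamina-associated LAP2 proteins, was at -0.15 ± 0.40 (SE), SUN1, which spans the inner nuclear membrane, at -0.52 ± 0.23, and ICMT, which methylates the prenylated ends of proteins such as lamins, at 0.00 ± 0.25. The signs of TMPO and ICMT changed under other settings, and 2 genes were called without DNMT1 KO replicate 3.

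The genes most like VIM and KRT7 were sought by the root mean square difference of log2(CPM + 0.5), centred on each gene's mean, over the 10 libraries. For VIM these were RAB34, a small GTPase, with a difference of 0.35, SPARC, a secreted matrix-binding protein, with 0.42, and MAGEA12, a cancer-testis antigen, with 0.55. SPARC went from 1.88 ± 1.26 CPM (SD, n = 6) to 705 ± 126 CPM (SD, n = 4), a range close to that of VIM. For KRT7 they were ATP2C2, a calcium pump of the secretory pathway, INAVA, a protein of epithelial junctions, and TRNP1, with differences of 0.39, 0.40 and 0.40. ATP2C2 was at 9.36 ± 9.01 CPM (SD, n = 6) and 0.92 ± 0.31 CPM (SD, n = 4), with a wide spread among HCT116 libraries like that of KRT7. Since these genes were chosen by likeness over the same 10 libraries, such shared ranges follow from the choice and are no separate result.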

How the data were processed

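Libraries were grouped by the labels of line, replicate and batch. The authors trimmed 50-base paired reads, aligned them to hg38 with bowtie2 without splicing, removed reads under mapping quality 10 and counted reads over exons with featureCounts; whole-number counts per gene were deposited and used as given. Symbols came from GENCODE release 44 by Ensembl identifier. Differences were tested with edgeR 4.0.16 (TMM, filterByExpr, quasi-likelihood, Benjamini-Hochberg adjustment over all genes), with DESeq2 1.42.0 as an alternative, in R 4.3.3. SEs are the absolute log2 fold change over the square root of F. The fit was tested on simulated counts. Of the counts, 35418732 to 85991812 per HCT116 library and 26700853 to 55732013 per DNMT1 KO library set the precision. RPKM is TMM-scaled CPM over the exon length in the tables. Stretches of 50 bases were matched exactly to GRCh38 with its alternate contigs. Replicate p-values measure the spread between these libraries. Same-numbered replicates 1, 2 and 3 of both lines deviated with correlations of 0.55, -0.27 and 0.37, so the numbers were not taken as pairs.

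The members and gene lists were chosen with earlier results of these data known. Named genes were all members, up to 5 called genes per direction and list (or the 3 with most counts where fewer than 3 were called), the 5 KRT8 and 5 KRT18 pseudogenes with most counts and the 3 genes most like VIM and KRT7. KRT10, LMNB1, LMNB2, PKP2 and markers named beyond this rule were chosen after their values were seen. 3 further HCT116 count tables matched no listed sample and were not used. The summed level of the leukocyte marker list is not reported here.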

Additional observations from a re-analysis of the deposited data

Results flagged for a closer look

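In 50 groups of values (the members, the named related genes, the pseudogene shares and the KRT8 to KRT18 ratio, each in HCT116 and in DNMT1 KO libraries), 1 library stood apart from its group. The KRT80 level of DNMT1 KO replicate 2 was 18.4 CPM, while the other 3 DNMT1 KO libraries lay between 35.2 and 37.4 CPM. The gap was 0.88 of the range of the group. Chance sets apart about 1 in 20 groups, or 2.5 of 50. Without this library the log2 fold change of KRT80 was 0.054, against -0.14 with it.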

How the results depend on the processing

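VIM, NES, KRT7, KRT8 and KRT18 kept their direction and call under each alternative run; for the other 3 tested members the cause of the changes was not tested. With batch as a term, in batches 1 and 2 with that term, in batch 2 alone and in replicates 1 to 3 with a replicate block, the log2 fold change of VIM was 8.67, 8.67, 9.0 and 8.73, and that of KRT18 was -2.85, -2.85, -2.91 and -2.84. In batch 2 alone KRT7 was at -4.99 and KRT19 at -1.82. The replicate block gave 2 members called higher and 4 lower (KRT19 added), 9 other filament genes, 5 linkers and 1 lamina partner; DES was lost and PLEC and JUP were gained, and none of the other members or list genes chosen by the naming rule changed its call under the block. At 10 or more counts in every library 2 other filament genes were called, KRT15 and DES. NEFH, KRT35, KRT36, KRT17 and KRT81 did not pass that filter and were not tested under it. Linkers called were 2 with no filter, 1 with DESeq2, 5 with batch as a term, 5 in batches 1 and 2 and 1 in batch 2 alone, and 0 to 3 leaving out 1 library; lamina partners called were 1, 1, 2 and 1 in the first 4 of these and 0 to 2 leaving out 1 library. TMPO turned to 0.062 (library totals alone), 0.52 (batch as a term, and batches 1 and 2), 0.73 (batch 2 alone) and 0.63 (block), with -0.32 to 0.0075 leaving out 1 library. ICMT turned to -0.039 with no filter and spanned -0.097 to 0.13 leaving out 1 library. The KRT8 to KRT18 log2 difference moved to -0.17 in batches 1 and 2. KRT36 and KRT17 were not called in batch 2 alone. Library totals alone moved the median of all genes from -0.07 to 0.14. Halved counts, run because most libraries hold mainly even low counts, changed no call of a member. Other filament genes called were then 6 instead of 7, since KRT36 was not tested under halved counts. Depth limits KRT7 in DNMT1 KO and VIM in HCT116 cells, whose lowest libraries held 32 and 26 counts. The sum of KRT19 with its pseudogenes was chosen after seeing the data.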
